A study of Sus scrofa with 37 samples.

Results

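Contused skeletal muscle taken 8 h after injury was compared with control muscle in Bama minipigs, a miniature pig breed. The comparison used the 4 libraries labelled 8 h, replicates 1 to 4, and the 9 libraries labelled control, replicates 1 to 9, which are 13 of the 37 libraries in the series. Members were chosen by their labels alone, and all 9411 genes with enough counts were tested. The series followed a contusion, a blunt crushing injury, over 7 times from 4 to 48 h, with 4 libraries a time, in 8 minipigs. Controls carry the treatment label mechanical damage too, so how control muscle was handled, and whether it came from injured animals, is unknown here. The labels give no age, sex or muscle, and do not say which libraries share an animal. The p-values below therefore measure the spread between libraries, not between animals.

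A contusion tears fibre membranes and small vessels. Damaged fibres and resident cells release signals that draw in neutrophils first and monocytes soon after, and these cells clear debris before satellite cells rebuild the fibres. Surviving fibres meanwhile switch on stress genes, and the clot and surrounding matrix are remodelled by proteases. Gene roles given below are those known for the mammalian genes.

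Column totals were 10.55 to 13.48 M counts at 8 h and 10.33 to 12.29 M in the controls, so that 3 counts correspond to 0.252 to 0.331 and 0.236 to 0.369 counts per 1 M counts of the table (CPM). CPM are per gene and are not divided by gene length, so levels are compared between libraries and not between genes. The 8 h libraries did not form a tight group. On the first principal component, which held 61% of the variance over the 13 libraries, replicates 1 to 4 lay at 88.4, 81.9, 63.0 and 29.1, and the controls lay between -40.3 and -17.8. Replicate 4 was the lowest of the 4 in 1869 of the 2426 genes higher at 8 h and the highest in 1775 of the 2658 genes that were lower. It also differed from replicates 1 to 3 in C1QBP, a mitochondrial protein gene at 25.7, 20.8, 16.3 and 0.110 CPM in replicates 1 to 4. By its level, the levels of NDUFAF8 and ND6 and the column total, the 37 libraries fall into 5 sets, of which the labels say nothing. Replicates 1 to 3 fall in a set with control replicates 1 and 2, and replicate 4 in a set with control replicates 6, 7 and 9. Among the controls, replicate 2 lay nearest to the 8 h libraries (-17.8), and in genes of inflammation and fibre stress it was often the highest control. The muscle genes CKM (creatine kinase) and DES (desmin) were high in every library. CKM stood at 26270, 21750, 22040 and 23360 CPM at 8 h against 18810 to 32660 CPM in the controls (median 21910). DES stood at 9852, 7897, 7709 and 5871 CPM at 8 h against 5033 to 14080 CPM in the controls (median 7540), and neither gene was called.

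**Figure D1:**
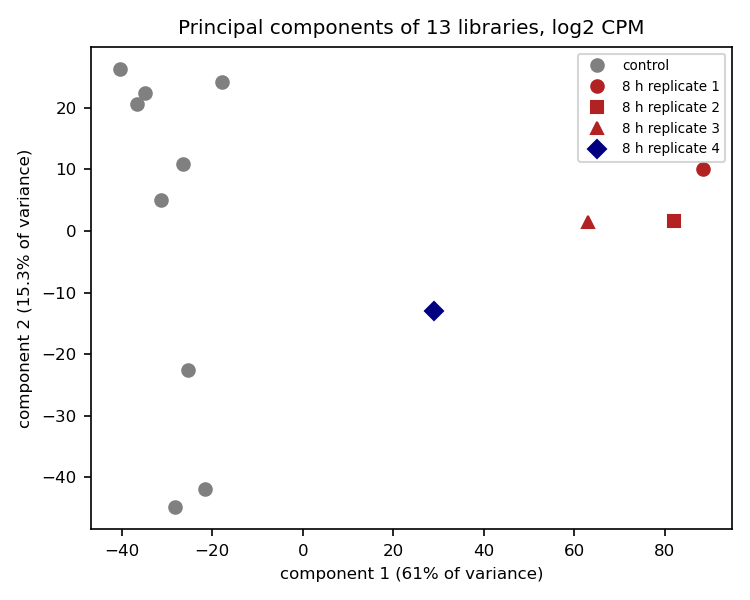
Principal components of the 13 libraries from log2 CPM, with 1 point a library. The first component (x axis, 61% of the variance) separates the 4 libraries at 8 h from the 9 controls, with replicate 4 (29.1) nearest to the controls. The second (y axis, 15.3%) spreads the controls.

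At 8 h, 5084 of 9411 genes differed from control at an edgeR adjusted p under 0.05 (54% of genes), 2426 of them higher (25.8%) and 2658 lower (28.2%). The median log2 change over all genes tested was -0.07. A change of at least 2-fold was reached by 1159 of the higher genes (12.3% of those tested) and 1167 of the lower ones (12.4%). Rises went further than falls, since 79 genes rose and 14 fell by 16-fold or more. The 4 libraries lay above every control in 1296 genes (13.8%) and below every control in 1149 (12.2%). Those shares are the background against which the gene lists below are counted. A gene is called here when its adjusted p is under 0.05. Without 8 h replicate 4 the count was 5213, and without control replicate 2 it was 5098. A fit that included the 5 library sets called 3966 genes, and 3742 of these were also called, in the same direction, without the sets.

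**Figure D2:**
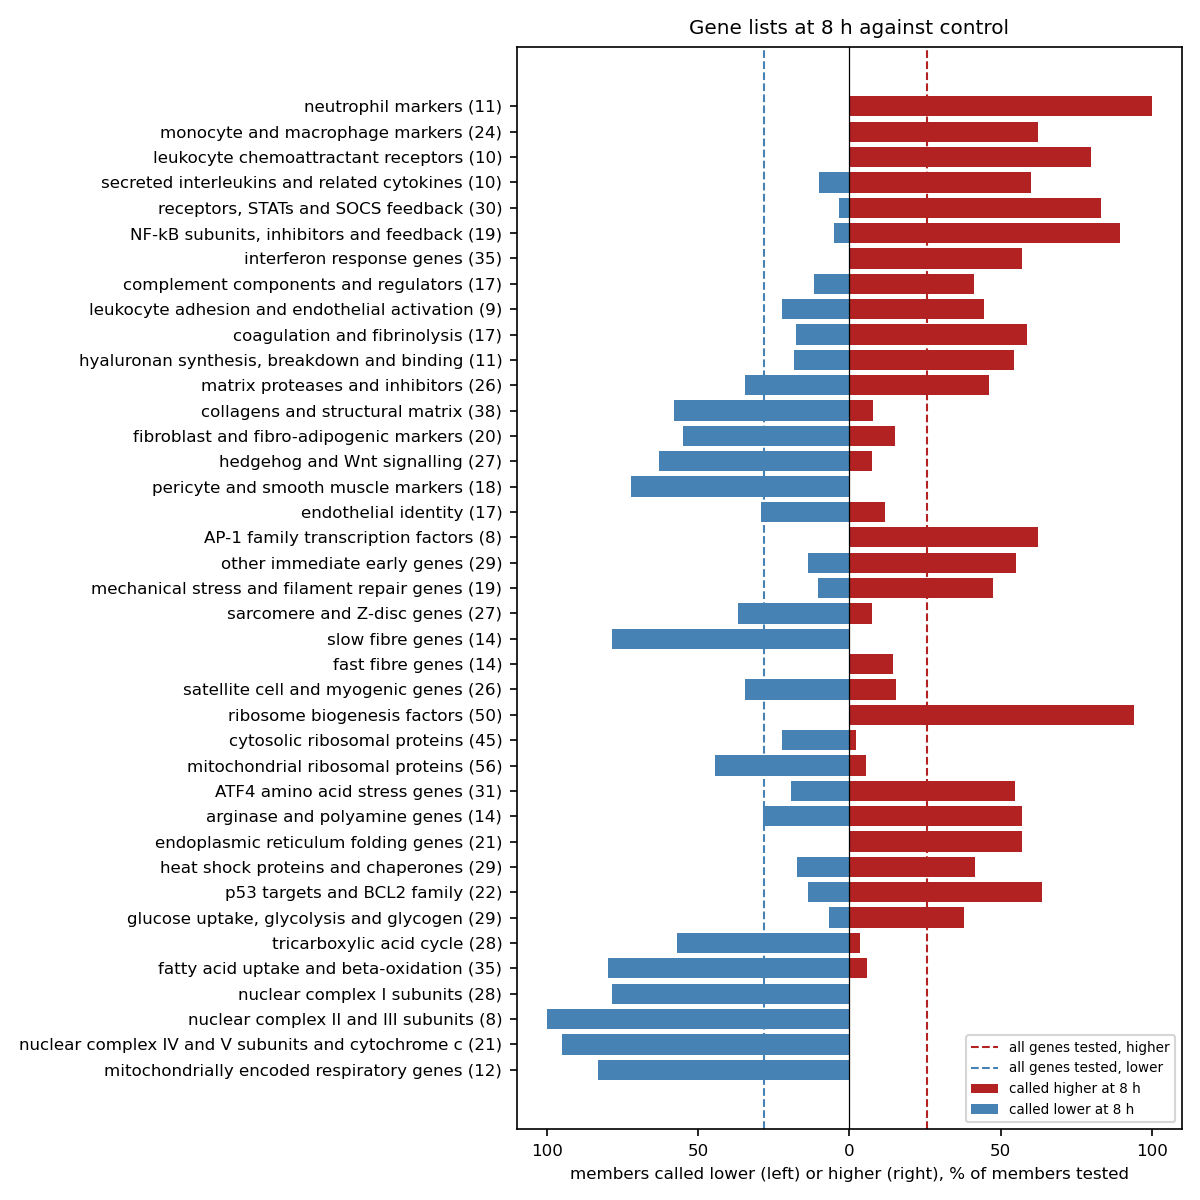
Share of each gene list called higher (red, right) or lower (blue, left) at 8 h against control, in percent of the members tested, whose number stands in brackets. Dashed lines mark the shares over all genes tested, 25.8% higher and 28.2% lower. Leukocyte, cytokine receptor and ribosome biogenesis lists lie far to the right, and respiratory chain, fatty acid and pericyte lists to the left.

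By a rule of size, level and separation from all controls, the 12 named rises were CCR1, IL1R2, ARG1, ANKRD1, CCL2, SLC11A1, OSM, SOCS3, TARS3, RTKN2, RUNX1 and PTX3. NRG1 (6.80) and HAS1 (6.38), described below, were left out because they averaged less than the 20 CPM that the rule asks for. RTKN2 stood at 95.8, 98.2, 30.9 and 12.9 CPM at 8 h against 0.123 to 3.47 CPM in the controls (median 0.978). It rose by 5.66 ± 0.86 on the log2 scale (SE, edgeR adjusted p = 2.74e-06). RUNX1 (chromosome 13, 198371835 to 198635648 in Sscrofa11.1), a transcription factor of blood cells that denervated muscle is also known to express, stood at 355, 339.6, 326 and 185 CPM at 8 h against 3.79 to 17.1 CPM in the controls (median 5.57). RUNX1 rose by 5.49 ± 0.50 on the log2 scale (SE, edgeR adjusted p = 8.55e-10), replicate 4 again being the lowest of the 4. The 12 named falls were ANGPTL1, B3GALT1, OLFML2B, CDO1, DKK2, ITGB6, ASPN, TPPP3, GPAM, PLIN5, GASK1B and PPM1K. GASK1B, a Golgi-associated protein, stood at 2.71, 2.60, 6.47 and 4.41 CPM at 8 h against 18.0 to 47.4 CPM in the controls (median 30.3). It fell by 2.99 ± 0.32 on the log2 scale (SE, edgeR adjusted p = 1.68e-08). OLFML2B, an extracellular matrix protein, stood at 1.08, 1.13, 4.79 and 3.20 CPM at 8 h against 12.6 to 44.6 CPM in the controls (median 26.6), and fell by 3.40 ± 0.40 on the log2 scale (SE, edgeR adjusted p = 6.09e-08). For each of these 4 genes the groups did not overlap.

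**Figure D3:**
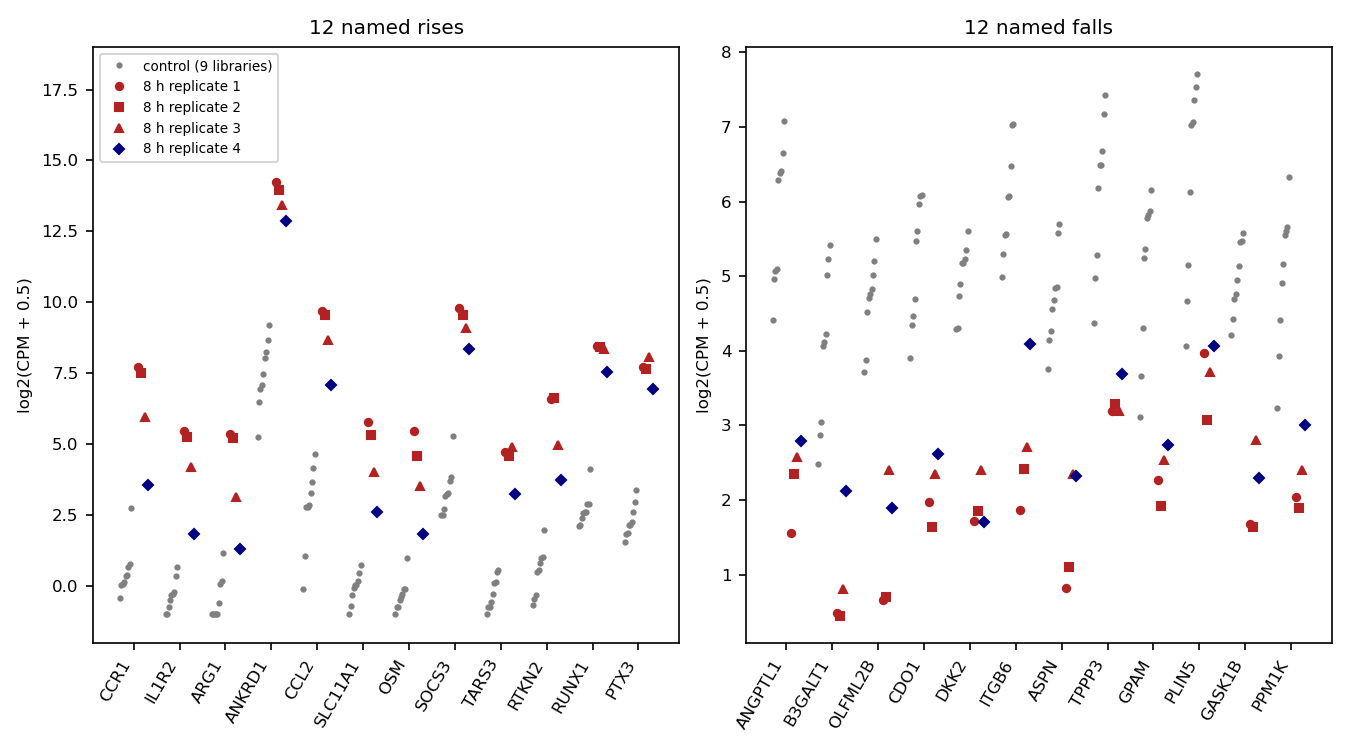
Levels of the 12 named rises (left) and 12 named falls (right) in each library, as log2(CPM + 0.5). Grey points are the 9 controls in order of value, and coloured symbols are 8 h replicates 1 to 4. No 8 h library overlaps the controls in these genes, which the naming rule required, and replicate 4 (blue) is the lowest 8 h library in all 12 rises.

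Chemokines changed in both directions. CCL2 (chromosome 12, 40798109 to 40800013), the main monocyte attractant, stood at 818, 758, 411 and 136 CPM at 8 h against 0.435 to 24.5 CPM in the controls (median 6.77). It rose by 5.80 ± 0.69 on the log2 scale (SE, edgeR adjusted p = 7.36e-08). Of 9 ligands that attract monocytes and lymphocytes, 3 rose (33.3%, background 25.8%) and 2 fell, with a median of -0.17, and 1 rose with the library sets as a term. CCL5, a lymphocyte attractant, rose (1.34). CCL26, an eosinophil attractant, fell to 2.35, 1.56, 4.20 and 4.52 CPM at 8 h against 5.93 to 17.1 CPM in the controls (median 11.0), with no overlap, by 1.77 ± 0.47 on the log2 scale (SE, edgeR adjusted p = 0.00211). CXCL10, an interferon-induced lymphocyte attractant, was not called, at -0.17. All 3 neutrophil attractants measured rose. CXCL8, the best known of them, stood at 340.1, 179.9, 35.9 and 3.09 CPM at 8 h against 1.23 to 9.40 CPM in the controls (median 2.94). It rose by 5.15 ± 0.98 on the log2 scale (SE, edgeR adjusted p = 6.4e-05), yet replicate 4 lay inside the control range, and without replicate 1 the log2 rise was 4.21. CXCL2 stood at 75.8, 55.2, 37.7 and 19.5 CPM at 8 h against 12.9 to 33.6 CPM in the controls (median 25.7), its rise of 0.99 ± 0.38 on the log2 scale (SE, edgeR adjusted p = 0.0279) was small, and it was not called with column totals as the scale, by limma-voom or with the library sets as a term.

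Secreted cytokines of the interleukin 6 family were among the rises. Of 28 cytokines listed, 10 were in the table, and 6 of these rose and 1 fell, with a median of 2.32. IL6, which liver, leukocytes and fibres respond to, stood at 96.1, 112, 77.2 and 24.8 CPM at 8 h against 1.33 to 7.69 CPM in the controls (median 3.59). IL6 rose by 4.17 ± 0.63 on the log2 scale (SE, edgeR adjusted p = 2.76e-06). OSM (oncostatin M), made by neutrophils and macrophages, stood at 43.5, 23.5, 11.1 and 3.09 CPM at 8 h against 0 to 1.46 CPM in the controls (median 0.272). OSM rose by 5.70 ± 0.98 on the log2 scale (SE, edgeR adjusted p = 1.66e-05), or by 5.01 without 8 h replicate 1 and 6.36 without control replicate 2. LIF, of the same family, rose as well, by 3.77. CSF1, the growth factor of macrophages, stood at 354, 333, 234 and 81.9 CPM at 8 h against 9.84 to 30.8 CPM in the controls (median 18.8). CSF1 rose by 3.69 ± 0.40 on the log2 scale (SE, edgeR adjusted p = 1.38e-08). These genes did not overlap the controls, and replicate 4 was the lowest library for each of IL6, OSM and CSF1. IL34, which acts on the same receptor as CSF1, fell (-1.05), and IL33 was not called (-0.02).

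Most receptors and inhibitors of cytokine signalling rose. Of 30 receptors, STAT factors and SOCS inhibitors, 25 rose and 1 fell, 18 of them lying above every control (background 13.8%). The median log2 change was 2.05. STAT3, the factor that interleukin 6 family receptors activate, stood at 749.6, 677, 658 and 447 CPM at 8 h against 61.4 to 106 CPM in the controls (median 81.4). It rose by 2.95 ± 0.26 on the log2 scale (SE, edgeR adjusted p = 5.52e-10), and replicate 4 was the lowest of the 4 libraries. SOCS3, the feedback inhibitor of those receptors, stood at 883, 742, 540.2 and 326 CPM at 8 h against 5.13 to 38.3 CPM in the controls (median 8.96). IL4R, a receptor chain for interleukins 4 and 13, stood at 484, 419, 377 and 189.6 CPM at 8 h against 11.7 to 37.1 CPM in the controls (median 18.9), and rose by 4.16 ± 0.38 on the log2 scale (SE, edgeR adjusted p = 8.55e-10). IL1R2, a decoy receptor for interleukin 1, stood at 44.0, 38.0, 17.8 and 3.09 CPM at 8 h against 0 to 1.10 CPM in the controls (median 0.293). IL1R2 was far higher in replicates 1 and 2 than in replicate 4, and all 4 libraries still lay above the controls.

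Genes of the NF-kB pathway, which carries signals of injury and infection to the nucleus, rose in 17 of 19 cases and 1 (CYLD, -0.46) fell, with a median of 1.09. The subunits RELB (2.12), NFKB2 (1.86), REL (1.09), RELA (0.69) and NFKB1 (0.37) were all higher. BCL3, an atypical inhibitor that binds NF-kB in the nucleus, stood at 145, 133, 109 and 57.5 CPM at 8 h against 5.37 to 18.5 CPM in the controls (median 6.64). BCL3 rose by 3.56 ± 0.42 on the log2 scale (SE, edgeR adjusted p = 6.53e-08). MAP3K8, a kinase downstream of Toll-like receptors, stood at 45.9, 42.3, 30.4 and 13.6 CPM at 8 h against 0.879 to 2.97 CPM in the controls (median 1.76), and rose by 4.24 ± 0.55 on the log2 scale (SE, edgeR adjusted p = 2.94e-07). ZC3H12A, a ribonuclease that degrades cytokine messages, stood at 129, 111, 76.8 and 34.5 CPM at 8 h against 3.04 to 10.0 CPM in the controls (median 5.34). Its rise was 3.94 ± 0.40 on the log2 scale (SE, edgeR adjusted p = 7.22e-09). None of the 3 overlapped the controls. Interferon response genes rose in 20 of 35 cases and fell in none, with a median of 0.74. With the library sets as a term, 13 rose. The rises included IRF5 (2.98) and the interferon gamma receptor chain IFNGR2 (1.88), whereas IFIT1 (0.04), IFIT2 (-0.09) and IFI44 (-0.05), which type I interferon induces strongly, were not called.

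Neutrophil markers were higher at 8 h, and their level set the 4 libraries apart. Genes low in every library are absent from the table, so a shared direction among such markers is no separate support. Of 23 markers listed, 11 were tested and all 11 rose, with a median log2 change of 3.93. Their summed level was 456, 317, 138 and 35.1 CPM in replicates 1 to 4 against 12.6 to 31.1 CPM in the controls. Replicate 1 held the most and replicate 4, just above the highest control, the least. CSF3R, the receptor for granulocyte colony-stimulating factor, stood at 137, 88.9, 34.7 and 5.96 CPM at 8 h against 0 to 5.75 CPM in the controls (median 1.85). CSF3R rose by 5.16 ± 0.77 on the log2 scale (SE, edgeR adjusted p = 2.4e-06), or by 4.54 without replicate 1. SLC11A1, a metal transporter of phagosomes, stood at 54.3, 39.3, 15.5 and 5.63 CPM at 8 h against 0 to 1.19 CPM in the controls (median 0.512), and rose by 5.75 ± 0.72 on the log2 scale (SE, edgeR adjusted p = 1.63e-07). In these bulk samples more cells of a type and more RNA per cell cannot be told apart. Of 18 chemoattractant receptors listed, 10 were tested, and 8 of these rose and none fell, under the same limit of the table. LTB4R, the receptor for leukotriene B4, stood at 15.3, 17.5, 5.46 and 0.773 CPM at 8 h against 0 to 0.548 CPM in the controls (median 0.103). It rose by 5.82 ± 0.77 on the log2 scale (SE, edgeR adjusted p = 3.46e-07), and replicate 4 lay only slightly above the highest control. CCR1, a chemokine receptor of neutrophils and monocytes, stood at 212, 179.5, 61.3 and 11.2 CPM at 8 h against 0.246 to 6.21 CPM in the controls (median 0.781). CCR1 rose by 6.39 ± 0.76 on the log2 scale (SE, edgeR adjusted p = 8.09e-08), or by 7.27 without control replicate 2. CXCR4 (0.74) and CX3CR1 (0.27) were not called.

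Monocyte and macrophage markers rose in part. Of 24, 15 rose, 9 of them above every control, and none fell. With the library sets as a term, 10 rose and 2 fell. CD14, a co-receptor for bacterial lipid carried by monocytes, stood at 178, 89.8, 58.3 and 17.4 CPM at 8 h against 2.61 to 8.25 CPM in the controls (median 2.95). CD14 rose by 4.30 ± 0.47 on the log2 scale (SE, edgeR adjusted p = 2.34e-08), or by 3.66 without replicate 1. CCR2, the receptor for CCL2, stood at 73.0, 55.1, 26.3 and 6.51 CPM at 8 h against 1.54 to 5.79 CPM in the controls (median 2.93). CCR2 rose by 3.69 ± 0.53 on the log2 scale (SE, edgeR adjusted p = 1.31e-06). MSR1, a scavenger receptor, stood at 34.4, 23.6, 15.4 and 7.61 CPM at 8 h against 0.435 to 2.34 CPM in the controls (median 1.47). CCR2, CD14 and MSR1 did not overlap the controls. Members that were not called included MRC1 (0.09), LYVE1 (-0.33), VSIG4 (-0.51) and the complement genes C1QA (-0.43), C1QB (-0.74) and C1QC (-0.74). The summed level of the 24 was 1214, 882, 648 and 318 CPM at 8 h against 176 to 405 CPM in the controls, and replicate 4 lay inside the control range.

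Few genes of other blood cells were measured, and they did not rise together. Of 2 lymphocyte markers, NKG7 of cytotoxic cells rose (1.91) and CD247 of the T cell receptor did not (-0.52). Of 2 mast cell markers, KIT fell (-1.15, not called with the library sets as a term) and MS4A2 was not called (-0.56). Of 4 red cell and platelet genes, ITGA2B of platelets fell (-0.93) and HBB, the haemoglobin beta chain, was not called. HBB stood at 268, 261, 134 and 130.3 CPM at 8 h against 72.7 to 467 CPM in the controls (median 136), inside the control range throughout. None of 5 class II antigen presentation genes was called, their changes lying between -0.18 and 0.42. Of 17 complement genes, 7 rose and 2 fell, or 4 fell with the library sets as a term. PTX3, a soluble pattern recognition protein that binds C1q, stood at 209, 199.6, 269 and 123 CPM at 8 h against 2.44 to 9.95 CPM in the controls (median 3.98). PTX3 rose by 5.35 ± 0.54 on the log2 scale (SE, edgeR adjusted p = 6.78e-09), and unlike the leukocyte markers it was highest in replicate 3. Of 9 genes of leukocyte adhesion, 4 rose and 2 fell, and 2 rose with the library sets as a term. ICAM1, which endothelium displays to passing leukocytes, stood at 58.7, 55.7, 43.8 and 22.0 CPM at 8 h against 8.98 to 23.4 CPM in the controls (median 13.9). It rose by 1.52 ± 0.30 on the log2 scale (SE, edgeR adjusted p = 0.000106) with replicate 4 inside the control range. The junction genes JAM2 (-1.57) and JAM3 (-0.84) fell.

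Transcription factors of the first hours after injury were unequal at 8 h. Of 8 AP-1 factors, 5 rose and none fell. FOSL1 (chromosome 2, 6430158 to 6436173), an AP-1 subunit, stood at 57.9, 59.3, 36.3 and 18.5 CPM at 8 h against 0.492 to 2.37 CPM in the controls (median 1.07). FOSL1 rose by 5.23 ± 0.55 on the log2 scale (SE, edgeR adjusted p = 1.11e-08). FOS (0.04), FOSB (-0.03) and ATF3 (-0.90), which respond within minutes, were not called. Controls varied widely in this list. Summed over the 8 factors, the level was 1478, 1375, 1191 and 821 CPM at 8 h against 326 to 2061 CPM in the controls. Of 29 other immediate early genes, 16 rose and 4 fell, or 9 and 4 with the library sets as a term. MYC, a driver of growth and ribosome synthesis, stood at 209, 218, 138 and 65.9 CPM at 8 h against 7.87 to 33.0 CPM in the controls (median 15.4). MYC rose by 3.14 ± 0.43 on the log2 scale (SE, edgeR adjusted p = 5.49e-07). GADD45A, a growth arrest gene also induced in denervated muscle, stood at 1010, 949, 558 and 303 CPM at 8 h against 25.4 to 61.2 CPM in the controls (median 36.9). GADD45A rose by 4.16 ± 0.46 on the log2 scale (SE, edgeR adjusted p = 2.34e-08), and neither gene overlapped the controls. The orphan receptors NR4A1 (-1.54) and NR4A2 (-1.23) and KLF4 (-1.02) fell, and EGR1 (-0.48) was not called. Of 15 C/EBP and Kruppel-like factors, 7 rose (46.7%, background 25.8%) and 2 fell (13.3%, background 28.2%). With the library sets as a term 4 fell. CEBPG, a partner of other C/EBP factors, stood at 147, 138, 119 and 122 CPM at 8 h against 27.1 to 43.2 CPM in the controls (median 34.5). CEBPG rose by 1.88 ± 0.13 on the log2 scale (SE, edgeR adjusted p = 5.16e-12), and replicate 4 was level with the other 3 libraries.

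The plasminogen system, which dissolves fibrin and frees cells from matrix, had several members that rose. Of 17 coagulation and fibrinolysis genes, 10 rose, 9 of them above every control, and 3 fell, or 1 in the set of replicates 1 to 3 alone. PLAU, the urokinase plasminogen activator, stood at 547, 578, 385 and 163 CPM at 8 h against 14.8 to 35.0 CPM in the controls (median 19.4). PLAU rose by 4.25 ± 0.46 on the log2 scale (SE, edgeR adjusted p = 1.9e-08). The receptor PLAUR (3.09) and an inhibitor of urokinase, SERPINB2 (5.38), also rose. F13A1, the fibrin cross-linking subunit of factor XIII that macrophages express, stood at 197, 149.6, 84.5 and 19.6 CPM at 8 h against 2.30 to 11.1 CPM in the controls (median 3.94), and rose by 4.35 ± 0.56 on the log2 scale (SE, edgeR adjusted p = 2.86e-07). The starter of clotting F3, tissue factor, fell (-1.28), as did its inhibitor TFPI (-2.89) and PROS1 (-0.91).

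Hyaluronan genes and matrix proteases changed in both directions. HAS1, a hyaluronan synthase, stood at 6.96, 10.6, 12.0 and 2.87 CPM at 8 h against 0 to 0.274 CPM in the controls (median 0.0786). CD44, the hyaluronan receptor of leukocytes and stroma, stood at 210.3, 162, 116 and 42.3 CPM at 8 h against 6.64 to 19.7 CPM in the controls (median 13.2). CD44 rose by 3.33 ± 0.44 on the log2 scale (SE, edgeR adjusted p = 3.29e-07). Of 11 hyaluronan genes, 6 rose, CEMIP (5.40), which starts hyaluronan breakdown, among them, and 2 fell, including the lysosomal hyaluronidase HYAL1 (-2.08). Of 26 matrix proteases and inhibitors, 12 rose (46.2%, background 25.8%) and 9 fell (34.6%, background 28.2%). TIMP1, an inhibitor of matrix metalloproteinases, stood at 476, 412, 241 and 115 CPM at 8 h against 7.50 to 18.9 CPM in the controls (median 11.1). TIMP1 rose by 4.78 ± 0.44 on the log2 scale (SE, edgeR adjusted p = 1.21e-09). The leukocyte proteases ADAM8 (4.36) and MMP9 (1.78) and the aggrecanases ADAMTS4 (3.97) and ADAMTS8 (3.44) rose, whereas stromal MMP2 (-0.92), MMP16 (-2.41) and ADAMTS2 (-1.80), which trims procollagen, fell.

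Many stromal genes were lower at 8 h. Of 18 pericyte and smooth muscle markers, 13 fell and none rose, with 8 below every control (background 12.2%) and a median of -1.21. RGS5, a pericyte marker, stood at 55.8, 56.6, 98.6 and 121 CPM at 8 h against 229 to 499 CPM in the controls (median 392). RGS5 fell by 2.18 ± 0.28 on the log2 scale (SE, edgeR adjusted p = 2.41e-07). MYH11, the smooth muscle myosin heavy chain, stood at 14.7, 12.9, 30.1 and 33.4 CPM at 8 h against 60.4 to 187 CPM in the controls (median 107), and fell by 2.35 ± 0.37 on the log2 scale (SE, edgeR adjusted p = 5.14e-06). PDGFRB (0.12) and CSPG4 (-0.39), receptors that pericytes also display, were not called. Of 20 fibroblast and fibro-adipogenic markers, 11 fell and 3 rose, the latter being S100A4 (2.01), VIM (0.88) and PDGFRA (0.81). ASPN (asporin) stood at 1.27, 1.65, 4.62 and 4.52 CPM at 8 h against 13.1 to 51.5 CPM in the controls (median 25.2). ASPN fell by 3.22 ± 0.42 on the log2 scale (SE, edgeR adjusted p = 2.86e-07). LUM (lumican) stood at 16.2, 24.9, 58.1 and 48.2 CPM at 8 h against 60.7 to 251 CPM in the controls (median 187), with replicate 3 just under the lowest control. Of 38 collagens and structural matrix genes, 22 fell and 3 rose. In the set of replicates 1 to 3 with control replicates 1 and 2 alone, 7 matrix genes and 4 fibroblast markers fell. LOXL4, a collagen cross-linking oxidase, went the other way at 170, 108, 127 and 106 CPM at 8 h against 1.63 to 9.31 CPM in the controls (median 2.39). LOXL4 rose by 5.30 ± 0.47 on the log2 scale (SE, edgeR adjusted p = 6.27e-10).

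Endothelial and fat cell markers were called lower at shares close to the background of 28.2%. Of 17 endothelial identity genes, 5 fell (29.4%), 2 rose (11.8%) and 10 were not called. Endothelial list medians in replicates 1 to 4 were -0.12, -0.415, 0.056 and -0.496 relative to the control mean, and -0.932 to 0.581 in the controls. EMCN (endomucin) stood at 17.8, 15.6, 26.1 and 27.4 CPM at 8 h against 36.3 to 69.3 CPM in the controls (median 47.3), below every control, while CDH5 (-0.03) and PECAM1 (-0.34), junction proteins of all endothelium, were not called. With the library sets as a term 8 endothelial genes fell and 0 rose. Of 13 adipocyte markers, 4 fell (30.8%). LPL, the lipase that frees fatty acids from blood lipid, fell by 2.67 ± 0.46 on the log2 scale (SE, edgeR adjusted p = 1.9e-05). The summed level of the 13 markers was 751, 589, 706 and 590.1 CPM at 8 h against 859 to 2447 CPM in the controls. Their list medians at 8 h, -0.335, -0.531, -0.201 and -0.798, lay inside the control range of -1.149 to 1.02. Of 5 keratinocyte markers, 2 fell and none rose. Of 7 Schwann cell markers, 2 rose (28.6%, background 25.8%), PMP22 (1.03) and MBP (1.37), and 1 fell. How far the numbers of such cells differed between libraries was not tested.

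Hedgehog and Wnt genes were mostly lower. Of 27 hedgehog and Wnt genes, 17 fell and 2 rose, with a median of -1.06. DKK2, a secreted Wnt modulator, stood at 2.80, 3.13, 4.79 and 2.76 CPM at 8 h against 19.1 to 48.1 CPM in the controls (median 35.6). DKK2 fell by 3.25 ± 0.55 on the log2 scale (SE, edgeR adjusted p = 1.27e-05). The Wnt enhancer RSPO3 (-4.07), the Wnt target AXIN2 (-1.83) and the hedgehog receptor PTCH1 (-0.92) fell, and FZD7 (1.36), a Wnt receptor of satellite cells, rose. HHIP, an inhibitor of hedgehog ligands, had 0 or 1 counts in each 8 h library and 2.19 to 9.19 CPM in the controls.

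Growth factors changed in both directions. Of 21 ligands, 9 rose (42.9%, background 25.8%) and 8 fell (38.1%, background 28.2%). NRG1, a ligand of ERBB receptors, stood at 20.8, 19.8, 8.57 and 4.19 CPM at 8 h against 0 to 0.365 CPM in the controls (median 0), with no overlap. Its relatives AREG (4.00), HBEGF (2.74) and EREG (2.29) rose too. IGF1, a growth factor of fibres and satellite cells, stood at 1.81, 1.30, 2.35 and 1.66 CPM at 8 h against 3.01 to 14.1 CPM in the controls (median 12.3). IGF1 fell by 2.52 ± 0.34 on the log2 scale (SE, edgeR adjusted p = 5.48e-07). ANGPT1, which keeps vessels quiet, fell (-3.60) and its antagonist ANGPT2 rose (2.00). PDGFC (-1.75), PDGFD (-2.36), FGF1 (-2.29) and HGF (-1.33), the activator of satellite cells, fell. VEGFA (-0.22) was not called. Of 36 TGF-beta and matricellular genes, 14 rose (38.9%) and 11 fell (30.6%), and 3 fell in the set of replicates 1 to 3 alone. FSTL3, an activin antagonist, stood at 149, 133, 125 and 56.3 CPM at 8 h against 9.67 to 17.8 CPM in the controls (median 14.2). FSTL3 rose by 3.06 ± 0.24 on the log2 scale (SE, edgeR adjusted p = 6.41e-11). Periostin, POSTN (-2.79), and myostatin, MSTN (-1.85), fell, and the matrix proteins TNC (3.23) and SPP1 (3.66) rose.

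**Figure D4:**
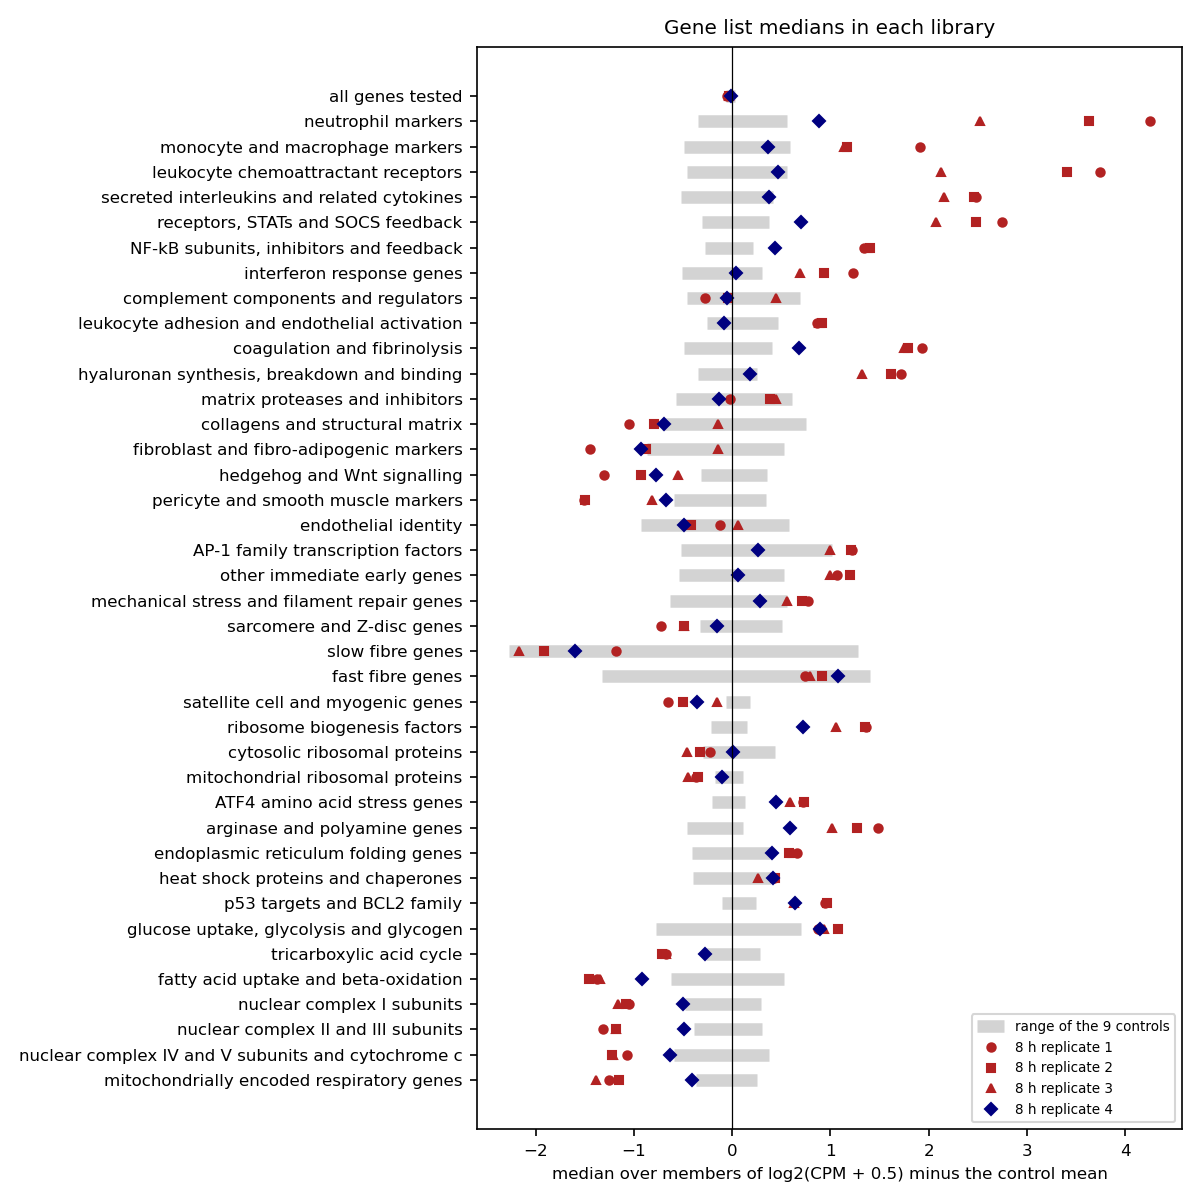
Median over the members of each gene list of log2(CPM + 0.5) minus the control mean of the gene (x axis), in each 8 h library (symbols) beside the range of the 9 controls (grey). All genes together lie near 0 in every library. Replicate 1 is the highest and replicate 4 the lowest in the neutrophil, macrophage and chemoattractant receptor lists, and ribosome biogenesis lies above the control range in each library.

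Several fibre genes of stretch and filament repair rose. Of 19, 9 rose, 8 of them above every control, and 2 fell. ANKRD1 (chromosome 14, 102603777 to 102612857), a titin-binding protein induced by stretch, stood at 19530, 15850, 11070 and 7413 CPM at 8 h against 37.4 to 583 CPM in the controls (median 178). ANKRD1 rose by 5.84 ± 0.75 on the log2 scale (SE, edgeR adjusted p = 2.66e-07). XIRP1, an actin-binding protein of damaged fibre segments, stood at 18490, 16740, 15710 and 5573 CPM at 8 h against 113 to 2022 CPM in the controls (median 782). XIRP1 rose by 4.37 ± 0.64 on the log2 scale (SE, edgeR adjusted p = 1.68e-06). FLNC (filamin C), which marks sarcomere lesions, stood at 25010, 22410, 25010 and 14480 CPM at 8 h against 1572 to 5218 CPM in the controls (median 3005). HSPB8, a chaperone of the complex that clears damaged filamin, stood at 6671, 6601, 6398 and 4466 CPM at 8 h against 629.9 to 1323 CPM in the controls (median 763), and its partner BAG3 rose by 1.47. The 4 genes did not overlap the controls. CSRP3, a Z-disc protein also induced by stretch, went down (-2.30). Summed over the list, the level was 79680, 71250, 67910 and 40210 CPM at 8 h against 8801 to 23250 CPM in the controls.

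Genes of the sarcomere itself were mostly not called or lower. Of 27 sarcomere and Z-disc genes, 10 fell (37%, background 28.2%), 2 rose (7.41%, background 25.8%) and 15 were not called. The rises were KLHL40, which stabilises thin filaments, and TRIM54. KLHL40 stood at 1223, 1121, 810.4 and 358 CPM at 8 h against 81.2 to 187 CPM in the controls (median 118), and rose by 2.93 ± 0.45 on the log2 scale (SE, edgeR adjusted p = 3.92e-06). SYNPO2, an actin-bundling Z-disc protein, stood at 465, 449, 370 and 495 CPM at 8 h against 833 to 1921 CPM in the controls (median 1053), and fell by 1.47 ± 0.23 on the log2 scale (SE, edgeR adjusted p = 3.45e-06). The control libraries differed widely in fibre type. MYH7, the slow myosin heavy chain, ran from 2451 to 39020 CPM over the controls and stood at 5160, 3522, 3052 and 5022 CPM at 8 h. Of 14 slow fibre genes, 11 fell, with a median of -2.13, but 1 lay below every control. Fast fibre genes rose in 2 of 14 cases, in 0 with the library sets as a term and in 10 in the set of replicates 1 to 3 alone. A difference in fibre type between the pieces of muscle sampled and a response to injury cannot be told apart here.

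Myogenic genes of the satellite cell rose and fell. Of 26, 4 rose (15.4%, background 25.8%) and 9 fell (34.6%, background 28.2%). MYF6, a muscle regulatory factor of mature fibres, stood at 459, 488, 471 and 459 CPM at 8 h against 90.2 to 311 CPM in the controls (median 242). MYF6 rose by 1.16 ± 0.23 on the log2 scale (SE, edgeR adjusted p = 0.00011). MYOD1 (0.85) rose, MYOG (-1.01), EYA1 (-2.18) and MEF2C (-1.40) fell, and PAX7 (-0.14), the satellite cell marker, was not called. Of 26 genes of calcium release and excitability, 2 rose (7.69%) and 5 fell (19.2%), both shares under the background. With the library sets as a term 1 rose and 3 fell. The rises were the acetylcholine receptor subunits CHRND (2.80) and CHRNG (2.27). CHRND stood at 30.9, 17.2, 13.4 and 6.62 CPM at 8 h against 1.26 to 6.37 CPM in the controls (median 1.95), and replicate 4 was close to the highest control. CHRNG, the fetal subunit, was not called with the library sets as a term.

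Some genes of membrane repair rose, and genes of protein breakdown were called higher at shares near or under the background. Of 17 annexins and membrane repair genes, 8 rose, 7 of them above every control, and 3 fell. S100A11, which acts with annexins at membrane wounds, stood at 98.9, 83.7, 65.4 and 48.3 CPM at 8 h against 13.5 to 25.7 CPM in the controls (median 17.8). S100A11 rose by 1.97 ± 0.33 on the log2 scale (SE, edgeR adjusted p = 9.45e-06). Dysferlin, DYSF (0.15), and MG53, TRIM72 (0.41), were not called. Of 31 atrophy and autophagy genes, 9 rose (29%, background 25.8%) and 3 fell. TRIM63, the ubiquitin ligase MuRF1, stood at 2346, 2303, 1122 and 765 CPM at 8 h against 252 to 623 CPM in the controls (median 439). TRIM63 rose by 1.91 ± 0.31 on the log2 scale (SE, edgeR adjusted p = 6.47e-06), and FBXO32, the ligase atrogin-1, by 0.74. CTSL, a lysosomal protease that macrophages also make, stood at 69.2, 58.0, 35.2 and 8.61 CPM at 8 h against 0.615 to 4.93 CPM in the controls (median 1.32), and rose by 4.50 ± 0.57 on the log2 scale (SE, edgeR adjusted p = 2.23e-07). Neither TRIM63 nor CTSL overlapped the controls. Of 33 proteasome subunits, 7 rose (21.2%, background 25.8%) and 4 fell (12.1%, background 28.2%). On the upper quartile scale 4 rose and 9 fell.

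Most genes of oxidative metabolism fell. Nuclear subunits of the respiratory chain fell in 22 of 28 cases for complex I, 8 of 8 for complexes II and III and 20 of 21 for complexes IV and V with cytochrome c (background 28.2%), and none rose. In complexes II and III 5 fell with the library sets as a term. The medians were -0.96, -1.02 and -1.09. NDUFA5, a complex I subunit, stood at 105, 112, 98.1 and 201 CPM at 8 h against 234 to 337 CPM in the controls (median 309). NDUFA5 fell by 1.18 ± 0.21 on the log2 scale (SE, edgeR adjusted p = 2.84e-05). NDUFA4, which belongs to complex IV despite its name, stood at 315, 281, 265 and 463 CPM at 8 h against 511 to 1372 CPM in the controls (median 1051). NDUFA4 fell by 1.57 ± 0.33 on the log2 scale (SE, edgeR adjusted p = 0.000183). In both genes replicates 1 to 3 were close together and replicate 4 lay nearer to the controls. Of 12 genes encoded in mitochondrial DNA, 10 fell, with a median of -1.03. COX1, a subunit of cytochrome c oxidase, stood at 27370, 25200, 24060 and 40790 CPM at 8 h against 51590 to 97850 CPM in the controls (median 65180), and fell by 1.20 ± 0.31 on the log2 scale (SE, edgeR adjusted p = 0.00177). The 12 together held 5.16 to 8.64% of counts at 8 h and 10.4 to 18.8% in the controls, with no overlap. A loss of mitochondria and a lower level per mitochondrion cannot be told apart. Slow fibre genes were also lower, with 11 of 14 called and a median of -2.13, and their part in the fall of oxidative and fatty acid genes was not tested.

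Genes of fatty acid use fell, with few exceptions. Of 35 genes of fatty acid uptake and oxidation, 28 fell, 17 of them below every control, and 2 rose. The median was -1.50. ACADL, a long-chain acyl-CoA dehydrogenase, stood at 51.7, 43.2, 35.0 and 74.3 CPM at 8 h against 112 to 356 CPM in the controls (median 270). ACADL fell by 2.28 ± 0.33 on the log2 scale (SE, edgeR adjusted p = 1.7e-06). PLIN5, which ties lipid droplets to mitochondria, stood at 15.2, 7.90, 12.6 and 16.2 CPM at 8 h against 16.3 to 209 CPM in the controls (median 129.6), and fell by 3.05 ± 0.75 on the log2 scale (SE, edgeR adjusted p = 0.000991). ACSL4, which activates arachidonic acid, stood at 267, 238, 167 and 112 CPM at 8 h against 25.9 to 73.8 CPM in the controls (median 39.1), and rose by 2.15 ± 0.28 on the log2 scale (SE, edgeR adjusted p = 3.48e-07). UCP2 (1.82), a carrier also abundant in leukocytes, was the other rise. Of 28 genes of the tricarboxylic acid cycle, its pyruvate supply and related cytosolic enzymes, 16 fell and 1 rose, PDK4 (1.47), which blocks pyruvate entry. MDH1, the cytosolic malate dehydrogenase, stood at 193, 165, 169 and 280.2 CPM at 8 h against 347 to 1082 CPM in the controls (median 719), with no overlap.

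Of 29 genes of glucose use, 11 rose (37.9%, background 25.8%), 2 fell and 16 were not called. Summed over the 29, the level was 216500, 226800, 192900 and 214900 CPM at 8 h. That lay inside the control range of 42540 to 231500 CPM. The rises included the enzymes PGAM2 (1.17) and ALDOA (1.09), and the part of fibre type in these rises was not tested. With the library sets as a term 7 rose. PFKFB3 (chromosome 10, 64776315 to 64859118), which makes the activator of phosphofructokinase, stood at 1043, 1027, 537 and 241 CPM at 8 h against 7.61 to 65.3 CPM in the controls (median 44.3). PFKFB3 rose by 4.27 ± 0.51 on the log2 scale (SE, edgeR adjusted p = 8.62e-08). HK2, the muscle hexokinase, stood at 767, 621, 691 and 538 CPM at 8 h against 50.5 to 193 CPM in the controls (median 77.5), and rose by 2.77 ± 0.37 on the log2 scale (SE, edgeR adjusted p = 3.71e-07). HK2 in replicate 4 was close to the other libraries, whereas HK3 (4.02), a hexokinase of leukocytes, stood at 58.6, 44.7, 20.6 and 6.73 CPM. The insulin-responsive glucose carrier SLC2A4 fell (-1.52). Of 22 regulators of oxidative metabolism, 4 rose (18.2%, background 25.8%) and 8 fell (36.4%, background 28.2%). PPRC1, a coactivator induced by growth signals, stood at 167, 157, 139.7 and 89.6 CPM at 8 h against 14.8 to 27.6 CPM in the controls (median 21.2). PPRC1 rose by 2.75 ± 0.26 on the log2 scale (SE, edgeR adjusted p = 1.21e-09). Its relative PPARGC1B (-1.48) and the nuclear receptors PPARA (-1.65) and ESRRG (-1.26) fell, and PPARGC1A was not called (-0.20).

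Factors that build ribosomes rose, whereas 1 cytosolic ribosomal protein did. Of 50 ribosome biogenesis factors, 47 rose, 40 of them above every control, and none fell (background 25.8% higher and 13.8% above every control). The median was 1.13. NOP2, an RNA methyltransferase of the nucleolus, stood at 172, 156, 126 and 85.2 CPM at 8 h against 22.2 to 42.3 CPM in the controls (median 31.1). NOP2 rose by 2.12 ± 0.19 on the log2 scale (SE, edgeR adjusted p = 1e-09). NOB1, the nuclease that finishes small subunit RNA, stood at 75.6, 68.0, 52.8 and 35.6 CPM at 8 h against 11.3 to 24.7 CPM in the controls (median 16.1). NOB1 rose by 1.77 ± 0.19 on the log2 scale (SE, edgeR adjusted p = 1.27e-08). GTPBP4 (1.36) and BYSL (1.19), which act in large and small subunit assembly, rose likewise. List medians in replicates 1 to 4 were 1.36, 1.35, 1.06 and 0.72 relative to the control mean, and -0.22 to 0.15 in the controls. Of 45 cytosolic ribosomal proteins, 1 rose, RPL22 (1.20), and 10 fell (22.2%, background 28.2%), or 2 with the library sets as a term. Of 56 mitochondrial ribosomal proteins, 3 rose and 25 fell, or 0 and 30 on the upper quartile scale. Ribosomal protein genes have many near-identical copies, so their counts are uncertain.

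Amino acid stress and polyamine genes rose in part. Of 31 ATF4 response genes, 17 rose and 6 fell, with a median of 0.52, and 1 fell in the set of replicates 1 to 3 alone. TARS3, a threonyl-tRNA synthetase paralogue, stood at 25.8, 23.4, 29.6 and 9.05 CPM at 8 h against 0 to 0.989 CPM in the controls (median 0.314). TARS3 rose by 5.68 ± 0.58 on the log2 scale (SE, edgeR adjusted p = 7.22e-09). TRIB3, a pseudokinase of that pathway, stood at 24.2, 24.5, 22.0 and 11.0 CPM at 8 h against 0.0977 to 1.90 CPM in the controls (median 0.733), and rose by 4.62 ± 0.51 on the log2 scale (SE, edgeR adjusted p = 2.41e-08). In both genes replicates 1 to 3 were close together and replicate 4 was lower, with no overlap with the controls. The transporters SLC7A11 (2.77), SLC7A1 (2.51) and SLC7A5 (2.36) rose, the serine and cysteine synthesis genes PHGDH (-1.55), PSPH (-1.47) and CTH (-1.69) fell, and ASNS (0.24) was not called. Of 14 arginase and polyamine genes, 8 rose and 4 fell, or 2 in the set of replicates 1 to 3 alone. ARG1, arginase of neutrophils and macrophages, stood at 40.6, 36.6, 8.31 and 1.99 CPM at 8 h against 0 to 1.73 CPM in the controls (median 0). ARG1 rose by 5.90 ± 1.14 on the log2 scale (SE, edgeR adjusted p = 7.3e-05), or by 6.89 without control replicate 2, with replicate 4 close to the highest control. ODC1, the first enzyme of polyamine synthesis, stood at 261, 220.4, 122 and 72.2 CPM at 8 h against 22.6 to 47.0 CPM in the controls (median 32.6), and rose by 2.24 ± 0.33 on the log2 scale (SE, edgeR adjusted p = 2.1e-06). AMD1 (2.03) and SRM (1.72), the next enzymes, rose as well.

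Some protein folding genes rose. Of 21 endoplasmic reticulum folding genes, 12 rose and none fell, with a median of 0.47. With the library sets as a term 6 rose. XBP1, the factor of the unfolded protein response, stood at 214, 189, 168 and 127 CPM at 8 h against 59.1 to 112 CPM in the controls (median 70.4). XBP1 rose by 1.23 ± 0.17 on the log2 scale (SE, edgeR adjusted p = 7.36e-07). Of 29 heat shock proteins and chaperones, 12 rose and 5 fell, or 3 fell with the library sets as a term. HSPA8, the constitutive HSP70, stood at 7581, 5734, 4601 and 4510 CPM at 8 h against 1180 to 2300 CPM in the controls (median 1920), and rose by 1.62 ± 0.22 on the log2 scale (SE, edgeR adjusted p = 4.21e-07). The mitochondrial chaperones HSPD1 (-0.00) and HSPA9 (0.08) were not called and HSPE1 fell (-0.87).

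Cell death and antioxidant genes rose in part. Of 22 p53 targets and BCL2 family genes, 14 rose, 10 of them above every control, and 3 fell. RIPK1, a kinase of necroptosis and inflammation, stood at 63.8, 65.8, 44.2 and 26.9 CPM at 8 h against 8.61 to 21.4 CPM in the controls (median 15.3). RIPK1 rose by 1.72 ± 0.22 on the log2 scale (SE, edgeR adjusted p = 3.03e-07), and RIPK3 (1.28) and the pore protein GSDMD (1.58) rose too. The protective MCL1 (1.04) and BCL2A1 (2.67) were higher and BCL2L1 (-0.42) lower. Of 30 NRF2, haem and metal genes, 12 rose and 4 fell. SRXN1, which repairs oxidised peroxiredoxins, stood at 409, 382, 184 and 67.8 CPM at 8 h against 4.18 to 24.7 CPM in the controls (median 7.86). SRXN1 rose by 4.67 ± 0.62 on the log2 scale (SE, edgeR adjusted p = 4.25e-07). Catalase, CAT (-1.04), and the iron exporter SLC40A1 (-1.54) fell.

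The 8 h libraries also differed from the neighbouring times. Against 4 h, 2950 genes were called (31.3%), 1502 higher (16%) and 1448 lower (15.4%) at 8 h. Against 12 h, 1138 were called (12.1%), 466 higher (4.95%) and 672 lower (7.14%). The 8 h libraries share no library set with those of 4 h or 12 h, so time and set cannot be told apart in these contrasts. When the sets entered the model, edgeR called 0 genes in either contrast, with 841 and 873 at an unadjusted p under 0.05. CSF3R stood at 1.37, 4.79, 3.80 and 0.110 CPM at 4 h and 137, 88.9, 34.7 and 5.96 CPM at 8 h, a log2 difference of 4.68 ± 1.04 (SE, edgeR adjusted p = 0.00198). SDS, serine dehydratase, stood at 3.66, 12.5, 12.5 and 2.63 CPM at 4 h and 279, 234, 69.2 and 13.6 CPM at 8 h, a difference of 4.23 ± 1.11 (SE, edgeR adjusted p = 0.00596). ANGPTL1, an angiopoietin-like protein of stroma, stood at 65.2, 20.0, 18.2 and 39.7 CPM at 4 h and 2.44, 4.60, 5.46 and 6.40 CPM at 8 h, a difference of -2.92 ± 0.64 (SE, edgeR adjusted p = 0.00184). These 3 genes did not overlap between 4 and 8 h.

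Against 12 h, a ubiquitin ligase and an RNA-degrading enzyme were among the named genes that were higher at 8 h. TRIM35, the ligase, stood at 43.0, 38.6, 29.5 and 10.9 CPM at 8 h and 10.7, 4.97, 1.51 and 5.38 CPM at 12 h, a difference of 2.42 ± 0.54 (SE, edgeR adjusted p = 0.00667). ZC3H12A, given above for 8 h, stood at 32.2, 15.7, 7.44 and 22.1 CPM at 12 h, a difference of 2.18 ± 0.50 (SE, edgeR adjusted p = 0.00818). CDO1, cysteine dioxygenase, stood at 72.3, 7.03, 7.43 and 13.3 CPM at 4 h, 3.43, 2.60, 4.62 and 5.63 CPM at 8 h and 13.1, 21.9, 51.3 and 6.18 CPM at 12 h, so its lowest values were at 8 h. CDO1 differed at 8 h by -2.61 ± 0.65 (SE, edgeR adjusted p = 0.00391) from 4 h and by -2.51 ± 0.65 (SE, edgeR adjusted p = 0.0149) from 12 h on the log2 scale. SYNC, an intermediate filament protein of fibres, stood at 9.49, 9.46, 16.7 and 17.3 CPM at 8 h and 35.5, 56.8, 71.2 and 34.7 CPM at 12 h, a difference of -1.90 ± 0.27 (SE, edgeR adjusted p = 9.77e-05). No gene named here overlapped between 8 and 12 h. Without replicate 1 the count against 12 h was 241, and without replicate 4 it was 1895.

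**Figure D5:**
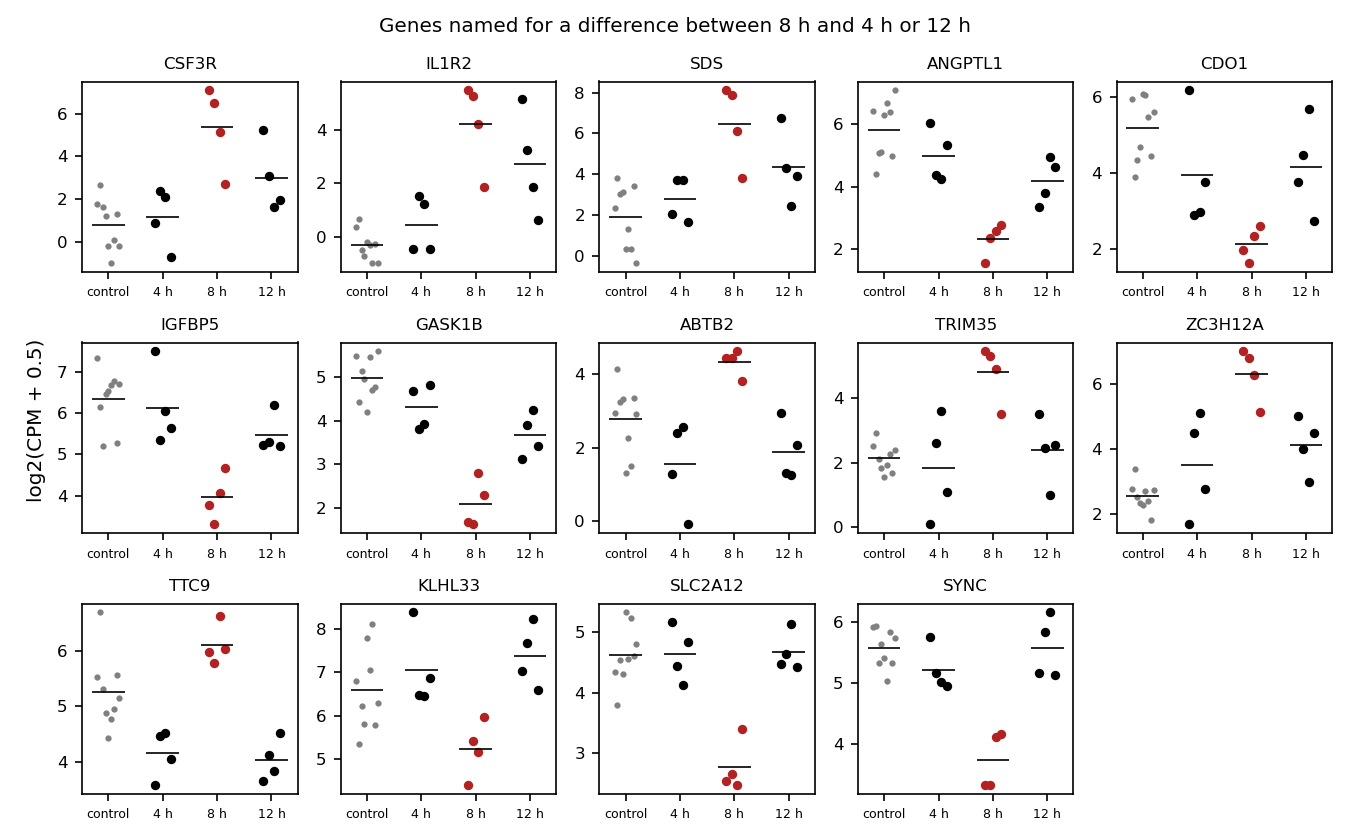
Genes named for a difference between 8 h and 4 h or 12 h, as log2(CPM + 0.5) in each library of the control, 4 h, 8 h (red) and 12 h groups, with lines at the group means. The red points lie apart from the 4 h or the 12 h points in each panel, which the naming rule required.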

How the data were processed

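Total RNA of skeletal muscle was sequenced, and the values deposited are raw counts per gene symbol, 9418 genes by 37 libraries, as the authors deposited them. Per the submitters' processing notes, the tools were HTSeq, HISAT2 2.2.1, Trimmomatic, MultiQC and FastQC, and the build was Sscrofa11.1. The annotation release and the strand setting of the counting are not given in the sources used here, so overlapping antisense genes cannot be told apart. No gene stays under 101 counts in all libraries, so the table holds part of each library and its totals are not the sequencing depth.

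In R 4.3.3, edgeR 4.0.16 was used with TMM scaling. filterByExpr left 9411 genes, and these got robust quasi-likelihood fits over all 37 libraries with group as the only factor. Benjamini-Hochberg adjustment covered all genes tested, and the threshold was 0.05. CPM use TMM-scaled totals. The 61 gene lists got counts and medians, without a test. Members and lists were chosen with earlier results of these data known. Named genes are the 12 that rose and the 12 that fell most, out of called genes that did not overlap the controls and whose higher group averaged 20 CPM or more, for each list the members with the smallest p (4 at most), and 4 a direction against 4 h and 12 h. C1QBP, NDUFAF8 and ND6, which define the library sets, could not be named by this rule but stay in the counts of calls. Other members named, such as FOS or PAX7, were chosen after their values were seen. Some genes that the rule names are not reported here.

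Alternatives were other size factors and filters, DESeq2 1.42.0, limma-voom (limma 3.58.1), a replicate block, only the groups compared, the library sets as a term, the set high in C1QBP alone, a test against 2-fold and leaving out each library. Of the 5 sets, 1 holds libraries whose column total exceeds 20 M. The others are, in turn, C1QBP over 8 CPM, NDUFAF8 under 4 CPM, ND6 of at most 32 CPM, and the rest. No pair of libraries at 8 h or in control agreed within sampling noise, with chi-square over its degrees of freedom at 17.2 or more. Counts of the 8 h against control comparison were simulated with 9411 genes, 200 of them changed. There edgeR recovered 71% at a log2 change of 1 and 96% at 2, with 7 false calls. The simulation changed far fewer genes than the 5084 called here and held no library set effect. Its rates need not hold for these data. Floors of 3 counts cover counting error only. Gene spans are from a table of Sscrofa11.1 that held 8945 of the symbols tested.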

Additional observations from a re-analysis of the deposited data

Results flagged for a closer look

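Control replicate 2 was the highest control, far from the next, in 13 of the 17 genes in which a control library stood apart. A gap of this size arises by chance in about 1 in 20 groups of normally distributed values, and the CPM examined were not log-transformed. The 184 groups examined were 92 genes, whose libraries are printed here, in control and at 8 h. The 13 genes were CCR1 at 6.21 CPM, SOCS3 at 38.3 CPM, RUNX1 at 17.1 CPM, OSM at 1.46 CPM, ARG1 at 1.73 CPM, CSF3R at 5.75 CPM, LOXL4 at 9.31 CPM, FOSL1 at 2.37 CPM, RTKN2 at 3.47 CPM, XIRP1 at 2022 CPM, SRXN1 at 24.7 CPM, XBP1 at 112 CPM and ZC3H12A at 10.04 CPM. All of them were higher at 8 h, but the genes examined were largely named for their change at 8 h, so this direction is no separate result. Without that control the log2 change at 8 h went from 6.39 to 7.27 for CCR1, from 5.90 to 6.89 for ARG1 and from 5.70 to 6.36 for OSM. The labels do not set control replicate 2 apart from the other controls.

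Other libraries stood apart in 1 or 2 genes each. Control replicate 1 was high in HBB at 466.7 CPM, where the next control had 262 CPM, and in TOP2A at 11.2 CPM. Control replicate 7 was high in CHRND at 6.37 CPM and control replicate 8 in KLHL40 at 187 CPM. At 8 h, replicate 4 was far below the others in HSPB8 at 4466 CPM and far above them in NDUFA5 at 201 CPM.

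Of genes whose level at 8 h differed from that at 4 h by the test of the difference itself, CSF3R was higher by 4.68 on the log2 scale, IL1R2 by 4.41 and SDS by 4.23. The differences were -2.92 for ANGPTL1, -2.61 for CDO1, -2.39 for IGFBP5 and -2.31 for GASK1B. Against 12 h, ABTB2 was higher by 2.44, TRIM35 by 2.42, ZC3H12A by 2.18 and TTC9 by 2.11, and the differences were -2.51 for CDO1, -2.21 for KLHL33, -1.96 for SLC2A12, a glucose carrier, and -1.90 for SYNC. None was called with the library sets as a term.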

How the results depend on the processing

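The count of genes called at 8 h against control lay between 3966 and 5240 in all alternatives but the test against a 2-fold change, which called 917 (556 higher, 361 lower). It ran from 4202 to 5213 without 1 library of 8 h and from 4926 to 5098 without 1 control. Upper quartile scaling moved the median of all genes from -0.07 to -0.19 and the share of calls that were higher from 47.7% to 38.7%, and column totals moved them to -0.13 and 40.9%. Against 4 h the count ran from 1610 without replicate 1 and 1938 without replicate 2 to 3536, and was 0 with the library sets as a term. Against 12 h it was 648 on column totals, 234 with 8 h and 12 h alone, 0 with the library sets, and 241, 310, 579 and 1895 without replicates 1, 2, 3 and 4. The share of higher calls there was 40.9%, 27.3% by upper quartiles and 21.1% on column totals. The cause was not tested. Of 6423 values of 257 named genes over the alternatives, 6194 kept direction and side of the threshold, 188 lost the call (91 in the test against 2-fold), 21 gained it and 20 reversed.

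Reversals were of genes not called, except TTC9. The log2 changes were -0.008 for ALAS2 and -0.029 for SLA-DMB by upper quartiles. With the library sets they were -0.23 for HBB, -0.48 for ALAS2, -0.038 for SLA-DQB1, -0.014 for SLA-DMA and -0.22 for SLA-DMB. In the set of 8 h replicates 1 to 3 with 2 controls they were 0.11 for MS4A2, -0.29 for HBB, -0.37 for ALAS2, -0.57 for SLA-DQB1, -0.10 for SLA-DMB and -0.024 for TTC9. Leaving out 1 library at a time gave -0.031 (8 h replicate 1) to 0.473 (control replicate 1) for HBB, which was at -0.012 without 8 h replicate 2. The range was -0.18 to 0.58 for ALAS2 and -0.14 to 0.23 for SLA-DMB.

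The replicate block, the replicate number as a term, called 4466 genes against control (2161 higher, 2305 lower), 2995 against 4 h and 1144 against 12 h. Numbers 5 to 9 occur in the controls alone, so under the block the contrast with control rests on control replicates 1 to 4. Its shifts therefore mix the block with the loss of control replicates 5 to 9. Same-numbered libraries of control and 8 h correlated at 0.169, 0.104, -0.05 and 0.02, so the numbers were not taken to pair libraries, and 1 of the 4 libraries of 8 h correlated best with its own number. Under the block HBB was at -0.16, SLA-DQB1 at -0.11 and SLA-DMB at -0.023, 10 of 14 fast fibre genes rose (2 without it), 10 of 17 endothelial identity genes fell (5 without it), and 3 clock genes rose (7 without it).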

Other observations

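Clock genes moved in opposite directions at 8 h. Of 19, 7 rose and 6 fell, against 25.8% and 28.2% of all genes tested, and 2 rose in the set of 8 h replicates 1 to 3 alone. NFIL3, a repressor, stood at 286, 242, 207 and 133 CPM at 8 h against 8.49 to 45.1 CPM in the controls (median 18.8), and rose by 3.19 ± 0.50 on the log2 scale (SE, edgeR adjusted p = 5.02e-06). The activators ARNTL (1.43) and CLOCK (0.44) also rose. DBP, an activator that NFIL3 competes with for the same sites, stood at 0.542, 0.347, 1.26 and 1.32 CPM at 8 h against 2.37 to 14.4 CPM in the controls (median 8.69), and fell by 3.19 ± 0.72 on the log2 scale (SE, edgeR adjusted p = 0.000463). TEF (-1.58) and HLF (-0.95), of the same family as DBP, fell, as did PER1 (-1.10), while PER2 (-1.07) was not called. NFIL3 and DBP did not overlap the controls. The labels do not give the hour of day at sampling, so it and the injury cannot be told apart.

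Of 19 glucocorticoid-induced genes, 6 rose (31.6%, background 25.8%) and 6 fell (31.6%, background 28.2%). ERRFI1, a feedback inhibitor of the EGF receptor, stood at 354, 410.3, 286 and 86.9 CPM at 8 h against 12.4 to 45.4 CPM in the controls (median 28.9), and rose by 3.36 ± 0.50 on the log2 scale (SE, edgeR adjusted p = 2.54e-06). TSC22D3 (-0.70) and KLF15 (-2.14), direct glucocorticoid targets in muscle, fell, and FKBP5 (0.32) was not called. Of 23 hypoxia genes, 8 rose (34.8%) and 5 fell (21.7%). HIF1A (1.22), ADM (1.25) and NDRG1 (1.38) rose, while PDK1 (-1.60) and EGLN3 (-0.78) fell. Of 29 genes of S phase and mitosis, 1 rose, TYMS (1.55), and 5 fell (17.2%, background 28.2%). With the library sets as a term 0 rose and 2 fell. TOP2A, a topoisomerase of dividing cells, stood at 0.813, 0.781, 1.68 and 0.552 CPM at 8 h against 0.639 to 11.2 CPM in the controls (median 3.89), with all 8 h libraries within or near the lower end of the controls.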
